A study of Homo sapiens with 6 samples.

Results

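The tripartite motif (TRIM) genes were examined in 92.1 cells, an established human ocular melanoma line, after knockdown of ALKBH3. Members were all genes whose symbol is TRIM followed by a number, taken from the transcripts that the deposited tables list and named through GENCODE release 29. Of 66 such symbols in that release 40 had a listed transcript, among 11387 genes in all, and 26 had none. Of the 40, 33 reached a mean of 1 FPKM (a level scaled to transcript length and to mapped fragments) over the 6 libraries and were tested, and 7 did not. The 3 shALKBH3 libraries carry the genotype ALKBH3 knockdown, and the 3 NC libraries are labelled WT. All came from 92.1 cells grown in serum-supplemented medium, and total RNA was sequenced. The labels name no hairpin sequence or clone and do not say whether NC cells carry a control hairpin or whether the libraries of a group came from separate cultures. The p-values therefore measure the spread between these libraries, which may be technical.

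Most TRIM proteins are ubiquitin ligases built from a RING finger, 1 or more B-boxes and a coiled coil, followed by a C-terminal domain that selects the target. A large branch of the family ends in a PRY-SPRY domain and includes retroviral restriction factors and regulators of RNA and DNA sensing. Transcription of several of these members is induced by interferon, through response elements in their promoters. Other branches work in transcriptional repression, in the nervous system, at membranes or at the cytoskeleton.

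ALKBH3, the demethylase targeted by the knockdown, was at 3.29, 3.60 and 4.24 FPKM in shALKBH3 libraries, against 10.5, 10.6 and 9.19 FPKM in NC libraries. The log2 difference was -1.24 (SE 0.118, limma adjusted p = 0.0079), and the adjusted p was 0.051 without NC replicate 1 and 0.063 for its most abundant transcript alone. Listed FPKM summed to between 326875 and 333987 in shALKBH3 libraries and between 340950 and 361268 in NC libraries, so every shALKBH3 sum lay below every NC sum. Of 8 melanocyte-lineage markers MITF alone had a listed transcript, at 10.3 to 14.0 FPKM in shALKBH3 and 3.29 to 9.53 FPKM in NC libraries. MLANA, PMEL, TYR, DCT, TYRP1, SOX10 and S100B had none, so the listed markers did not bear out the melanocytic character of the labelled line. Why these markers are not listed was not tested. Keratin genes KRT8 and KRT18 were the 2 of 6 epithelial markers with listed transcripts, and together reached 458 to 578 FPKM in shALKBH3 and 429 to 514 FPKM in NC libraries. The 4 listed of 6 fibroblast markers summed to 24.2 to 29.3 FPKM in shALKBH3 and 24.1 to 39.9 FPKM in NC libraries. NC replicate 1 held COL1A2 at 7.22 and COL3A1 at 5.46 FPKM, against at most 0.783 and 0.965 FPKM in any other library. Of 6 leukocyte markers 1 was listed (CSF1R, at most 1.08 FPKM), and of 4 endothelial markers 0. The part of these levels in the TRIM results was not tested, and in bulk RNA a change in the share of cells and one in RNA per cell cannot be told apart.

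Of the 33 TRIM genes tested 5 rose in shALKBH3 and 0 fell at a limma adjusted p under 0.05: TRIM22, TRIM14, TRIM21, TRIM38 and TRIM25. Across all 10475 genes tested 1.76% passed, 1.28% higher (134) and 0.477% lower (50), and with libraries set to equal sums the split was 151 higher and 24 lower. Differences are of log2(FPKM + 1), shALKBH3 minus NC, a scale that understates the change of low genes, and p-values were adjusted over all genes tested. On this scale TRIM22 showed the largest difference of any TRIM gene, with a group mean 2.71 times that of NC. With 0.1 FPKM added in place of 1, TRIM22 was at 1.44. TRIM39 (1.58, limma adjusted p = 0.25) and TRIM3 (-1.68, adjusted p = 0.41) then had larger differences that did not pass. Without any 1 library 2 or 3 TRIM genes passed, TRIM22 and TRIM14 each time. All 5 belong to a list of 10 interferon-responsive TRIM genes (TRIM5, TRIM14, TRIM21, TRIM22, TRIM25, TRIM26, TRIM34, TRIM38, TRIM56 and TRIM69), of which 9 were tested and TRIM69 had no listed transcript. The log2 differences of the 9 had a median of 0.65 and ran from 0.08 to 1.40. Among the 24 other TRIM genes tested 0 passed in limma, and the median was 0.00. Of these 24 genes 4 had a positive and 2 a negative difference at an unadjusted p under 0.05. The median over all genes tested was -0.01. At that level 11 of all 33 TRIM genes had a positive difference, against 8.98% of all genes, and 2 a negative one, against 8.15%.

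**Figure D1:**
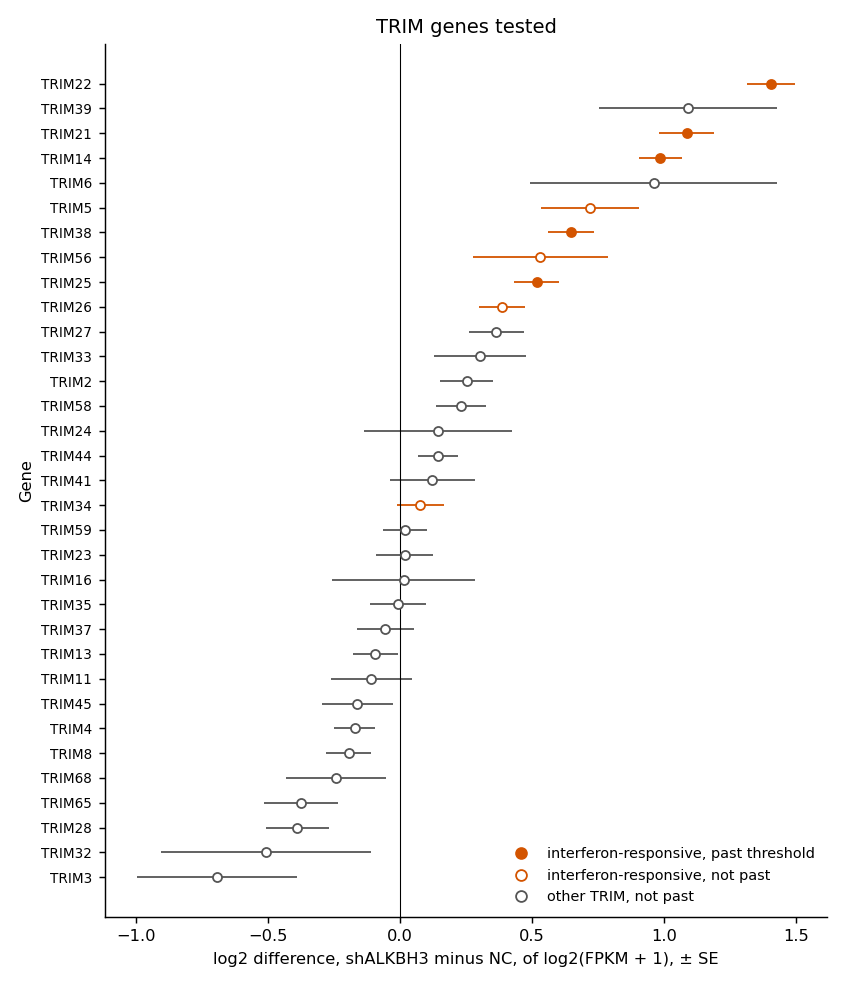
Log2 differences (shALKBH3 minus NC, of log2(FPKM + 1), bars ± SE from limma, 3 libraries per group) of the 33 TRIM genes tested, sorted by size. Filled points passed an adjusted p of 0.05 and are all interferon-responsive members, from TRIM25 at 0.52 to TRIM22 at 1.40.

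**Figure D2:**
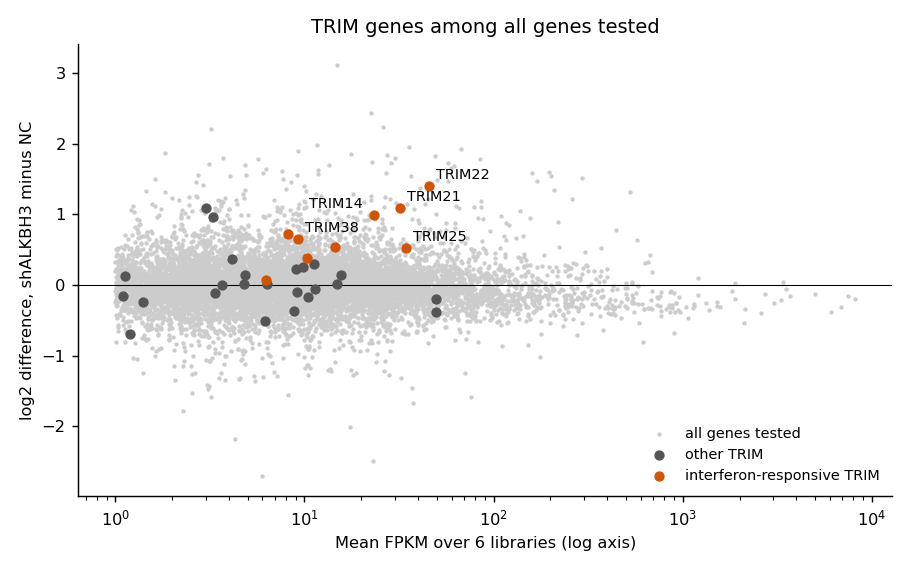
Log2 difference (shALKBH3 minus NC) against mean FPKM over the 6 libraries (log axis) for all 10475 genes tested, with TRIM genes in colour and the 5 that passed the threshold named. The 5 lie above 0 at mean levels from 9.21 FPKM (TRIM38) to 45.3 FPKM (TRIM22), while the other TRIM genes lie on both sides of 0.

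TRIM22, an interferon-induced ligase known to restrict HIV-1 transcription, was at 62.8, 64.7 and 71.3 FPKM in shALKBH3 libraries, against 22.3, 25.5 and 25.4 FPKM in NC libraries. The groups were far apart, with each knockdown value above 60 and each NC value under 26. The rise was 1.40 on the log2 scale (SE 0.091, limma adjusted p = 0.0030), and TRIM22 was the third most abundant TRIM gene over the 6 libraries. This call held in all 19 alternative settings, with log2 differences from 1.34 to 1.51.

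TRIM14 lacks a RING finger and acts as an adaptor of the mitochondrial antiviral signalling protein MAVS. Its level was 32.1, 30.6 and 31.2 FPKM in shALKBH3 libraries, against 15.0, 16.4 and 14.6 FPKM in NC libraries. Values within each group differed little and the groups did not overlap. The log2 rise was 0.99 (SE 0.080, limma adjusted p = 0.0044), and the call held without any 1 library.

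TRIM21, the cytosolic antibody receptor also known as the autoantigen Ro52, was at 44.0, 44.8 and 42.8 FPKM in shALKBH3 libraries, against 17.4, 21.5 and 21.9 FPKM in NC libraries. NC replicate 1 was the lowest, and the knockdown libraries were all close to each other. The log2 rise was 1.08 (SE 0.105, limma adjusted p = 0.0082), and the adjusted p was 0.054 without shALKBH3 replicate 2 and 0.054 without shALKBH3 replicate 3.

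TRIM25, the ligase known for attaching ubiquitin chains that activate the RNA sensor RIG-I, was at 43.9, 37.5 and 40.5 FPKM in shALKBH3 libraries, against 27.5, 27.6 and 29 FPKM in NC libraries. Its rise of 0.52 on the log2 scale (SE 0.085, limma adjusted p = 0.047) was the smallest of the 5. The adjusted p lay between 0.097 and 0.18 when any 1 library was left out, and was 0.063 for its most abundant transcript. TRIM38, a regulator of innate immune signalling, was at 11.1, 12.2 and 11.1 FPKM in shALKBH3 libraries, against 7.09, 6.84 and 6.92 FPKM in NC libraries. All 3 knockdown values stood apart from the NC values, which lay close together. The log2 rise was 0.65 (SE 0.086, limma adjusted p = 0.027), and the adjusted p lay between 0.073 and 0.12 without any 1 library. Across all genes tested the number called was also smaller without a library, between 48 and 109 instead of 184. The most abundant transcripts of TRIM38 and TRIM25 are 9413 and 5734 nucleotides long, against a median of 2969 over all genes. After a correction for transcript length and GC content the log2 difference was 0.45 for TRIM38 (adjusted p = 0.092) and 0.42 for TRIM25 (adjusted p = 0.099).

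**Figure D3:**
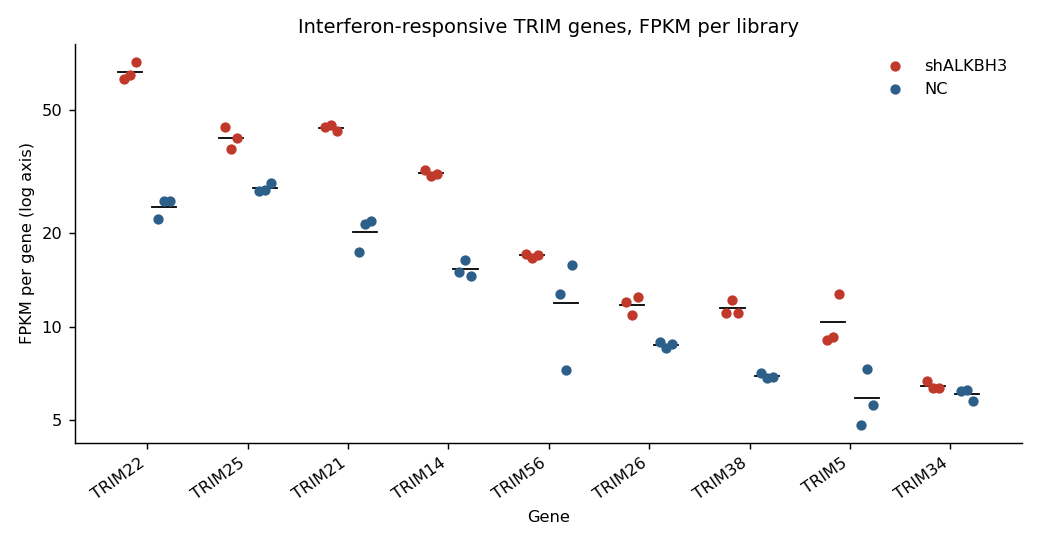
FPKM per gene (log axis) in each shALKBH3 and NC library for the 9 interferon-responsive TRIM genes with listed transcripts, ordered by mean level, with horizontal lines at group means. In each gene the 3 shALKBH3 points lie above the 3 NC points, by the widest margin in TRIM22 and the narrowest in TRIM34.

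The other 4 tested members of the interferon-responsive list did not pass. TRIM5, which recognises retroviral capsids, was at 9.10, 9.25 and 12.8 FPKM in shALKBH3 libraries, against 4.84, 7.30 and 5.61 FPKM in NC libraries. Its log2 difference of 0.72 (SE 0.186, limma adjusted p = 0.14) was larger than those of TRIM38 and TRIM25, with a wider spread between libraries. TRIM26, a ligase gene in the histocompatibility region of chromosome 6, was at 12, 10.9 and 12.5 FPKM in shALKBH3 libraries, against 8.94, 8.56 and 8.80 FPKM in NC libraries, a log2 difference of 0.39 (SE 0.088, limma adjusted p = 0.11). With array weights, which count libraries by their consistency, TRIM5 and TRIM26 passed (adjusted p = 0.046 and 0.044). The same weights raised the number called across all genes tested from 184 to 480.

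TRIM56, a ligase linked to DNA sensing, was at 17.2, 16.7 and 17.1 FPKM in shALKBH3 libraries, against 12.8, 7.29 and 15.8 FPKM in NC libraries. NC replicate 2 lay well under the other two, and the log2 difference was 0.53 (limma adjusted p = 0.35) with it and 0.24 (adjusted p = 0.34) without it. TRIM34, a capsid-binding relative of TRIM5, was at 6.68, 6.37 and 6.37 FPKM in shALKBH3 libraries, against 6.22, 6.28 and 5.79 FPKM in NC libraries. The log2 difference was 0.08 (SE 0.089, limma adjusted p = 0.69), and -0.10 for its most abundant transcript alone. The read-through gene TRIM6-TRIM34, listed at 0.588, 2.34 and 0 FPKM in shALKBH3 libraries and at 0 in every NC library, shares its exons. With both added together the log2 difference was 0.24 (adjusted p = 0.38). The read-through gene is listed only through shALKBH3, so adding it could only raise the difference. The value of TRIM34 is uncertain.

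In 14 of the 33 TRIM genes the 3 shALKBH3 libraries all lay above the 3 NC libraries, the 9 interferon-responsive genes among them, and in 4 genes all lay below. Across all genes tested these shares were 12.9% and 12%. Summed over the 9 interferon-responsive genes the level was 239, 233 and 246 FPKM in shALKBH3 libraries, against 122, 127 and 134 FPKM in NC libraries, so the mean sum was 1.87 times that of NC. Over the 31 other TRIM genes with listed transcripts the sum was 240, 240 and 246 FPKM in shALKBH3 libraries, against 254, 250 and 261 FPKM in NC libraries. The interferon-responsive genes thus made up 49.9%, 49.2% and 50% of TRIM FPKM in shALKBH3 libraries and 32.5%, 33.7% and 33.9% in NC libraries. Among these 31 genes TRIM28 had a mean of 42.7 FPKM in shALKBH3 and 56.2 FPKM in NC libraries, and TRIM8 46.0 and 52.8 FPKM. Of the 24 tested, 12 had a positive and 12 a negative log2 difference. The sum of all listed FPKM was also lower in shALKBH3, and its part in the lower sum of the other TRIM genes was not tested. With libraries set to equal sums the median log2 difference of the other TRIM genes was 0.08 and that of the interferon-responsive genes 0.73.

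Promoter sequence of the 5 genes that rose is shown because they moved together. The RefSeq table of the build GRCh38.p14, with 250 bases before and 50 after each gene's start, held 30 of the 40 TRIM genes, and 8 of the 9 interferon-responsive ones. TRIM22 had no entry there. The motif searched, on both strands, was GAAA followed by 2 bases of any kind and GAAA again, the core of the interferon-stimulated response element, and matches are in capitals. The windows are chr9:98119173-98119472 on the minus strand, chr11:4393653-4393952 on the minus strand, chr6:25962552-25962851 on the plus strand and chr17:56914000-56914299 on the minus strand, each printed 5′ to 3′ along the gene.
TRIM14: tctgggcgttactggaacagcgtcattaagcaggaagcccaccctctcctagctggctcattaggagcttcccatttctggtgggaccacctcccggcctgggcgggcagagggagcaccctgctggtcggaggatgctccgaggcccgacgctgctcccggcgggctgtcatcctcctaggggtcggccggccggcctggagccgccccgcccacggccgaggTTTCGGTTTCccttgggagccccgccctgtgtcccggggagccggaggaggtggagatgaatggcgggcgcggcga
TRIM21: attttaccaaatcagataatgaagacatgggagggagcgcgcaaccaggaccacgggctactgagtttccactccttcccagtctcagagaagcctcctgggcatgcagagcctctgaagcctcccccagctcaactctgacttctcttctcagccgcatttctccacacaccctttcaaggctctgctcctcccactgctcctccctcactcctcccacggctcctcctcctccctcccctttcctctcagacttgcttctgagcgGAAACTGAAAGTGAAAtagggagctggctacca
TRIM38: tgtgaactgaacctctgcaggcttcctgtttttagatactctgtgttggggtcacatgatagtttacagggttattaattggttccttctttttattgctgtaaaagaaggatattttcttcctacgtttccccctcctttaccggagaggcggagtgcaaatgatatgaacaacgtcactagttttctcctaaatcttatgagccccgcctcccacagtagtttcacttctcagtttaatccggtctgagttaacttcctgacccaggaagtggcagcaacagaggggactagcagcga
TRIM25: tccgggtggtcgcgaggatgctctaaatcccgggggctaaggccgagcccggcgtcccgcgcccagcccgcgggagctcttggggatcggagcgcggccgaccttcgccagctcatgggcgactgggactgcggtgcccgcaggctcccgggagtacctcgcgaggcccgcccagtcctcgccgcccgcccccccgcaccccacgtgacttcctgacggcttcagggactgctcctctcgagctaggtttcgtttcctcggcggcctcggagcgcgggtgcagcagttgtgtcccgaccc

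The TRIM14 window held 1 match, in the reverse orientation, starting at base 225 counted from 1 at the 5′ end. The TRIM21 window held 2 overlapping matches starting at bases 268 and 274, past the gene's start. TRIM38 and TRIM25 held no match to these letters in this window. Matches in the windows of TRIM5 (shown with 20 bases on each side, chr11:5685072-5685121, minus strand), TRIM26 (chr6:30213565-30213620, minus strand) and TRIM34 (chr11:5624891-5624940, plus strand) are shown for the interferon-responsive members that did not pass, and that of TRIM44 (chr11:35662720-35662769, plus strand) for the rest of the family.
TRIM5: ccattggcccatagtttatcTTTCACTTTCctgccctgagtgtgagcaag
TRIM26: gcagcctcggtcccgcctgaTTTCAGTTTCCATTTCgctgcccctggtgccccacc
TRIM34: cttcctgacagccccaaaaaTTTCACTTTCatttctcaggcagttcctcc
TRIM44: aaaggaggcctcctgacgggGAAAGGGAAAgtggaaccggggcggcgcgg

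In all, 5 of the 8 interferon-responsive TRIM genes with a window held the motif (62.5%), 3 of the 22 other TRIM genes did (TRIM2, TRIM16 and TRIM44, 13.6%), and 4.38% of all 27305 genes with a window did, a gene with several windows counting if any of them held it. Counted per window, the motif was in 5 of 9, 3 of 38 and 3.57% of all 35116 windows. Of the 4 genes that rose and had a window, 2 held it (TRIM14 and TRIM21). The interferon-responsive list was written from known responses to interferon. A high share of the motif in it could be foreseen and is no result of these libraries. The motif TTCNNNGAA, the core of the gamma-activated sequence, was in 0 of the 8 and in 5 of the 22, against 9.38% of all genes with a window. A match is a description of the letters. TRIM34, with 1 match, had a log2 difference of 0.08, or 0.24 with the read-through gene added, which could only raise it. TRIM38, with no match, rose by 0.65.

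Single transcripts were tested in the same way, 54 of the 93 listed TRIM transcripts reaching a mean of 1 FPKM. Of these 3 rose and 0 fell at a limma adjusted p under 0.05, where 0.472% of the 19698 transcripts tested passed and 0.35% rose. They are the main transcripts of the genes with the smallest p. TRIM22-201 held 93.5% of the TRIM22 sum and was at 59.7, 60.4 and 65.5 FPKM in shALKBH3 libraries, against 21.2, 23.6 and 24.0 FPKM in NC libraries (log2 1.39, limma adjusted p = 0.010). Most of the difference of the gene lay in this transcript, and the 3 shorter TRIM22 transcripts were each under 3 FPKM in every library. TRIM14-201 held 97.2% of its gene's sum (log2 0.97, limma adjusted p = 0.024) and TRIM21-201 94.6% (log2 1.05, limma adjusted p = 0.025).

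TRIM25-201, with 95.7% of the TRIM25 sum, had a log2 difference of 0.51 (limma adjusted p = 0.14), and TRIM38-201, the listed transcript of TRIM38, 0.65 (adjusted p = 0.12). Neither passed in the separate fit of 19698 transcripts in place of 10475 genes. TRIM38-201 has the same values as its gene, but its SE was 0.104 there and 0.086 in the gene fit. Its unadjusted limma p was 0.001 and 0.00024, so the 2 fits differ in more than the number of tests. In TRIM5 the largest transcript, TRIM5-203, was at 4.82, 5.96 and 5.36 FPKM in shALKBH3 libraries, against 2.75, 2.92 and 3.06 FPKM in NC libraries (log2 0.70, limma adjusted p = 0.18). It varied less between libraries than TRIM5-201, which was at 1.18, 0.609 and 3.93 FPKM in shALKBH3 and at 0.540, 2.22 and 0.481 FPKM in NC libraries. In TRIM34 one transcript was lower and one higher on average in shALKBH3, TRIM34-201 with a log2 difference of -0.10 and TRIM34-204 with 0.36, and neither passed (limma adjusted p = 0.88 and 0.72).

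**Figure D4:**
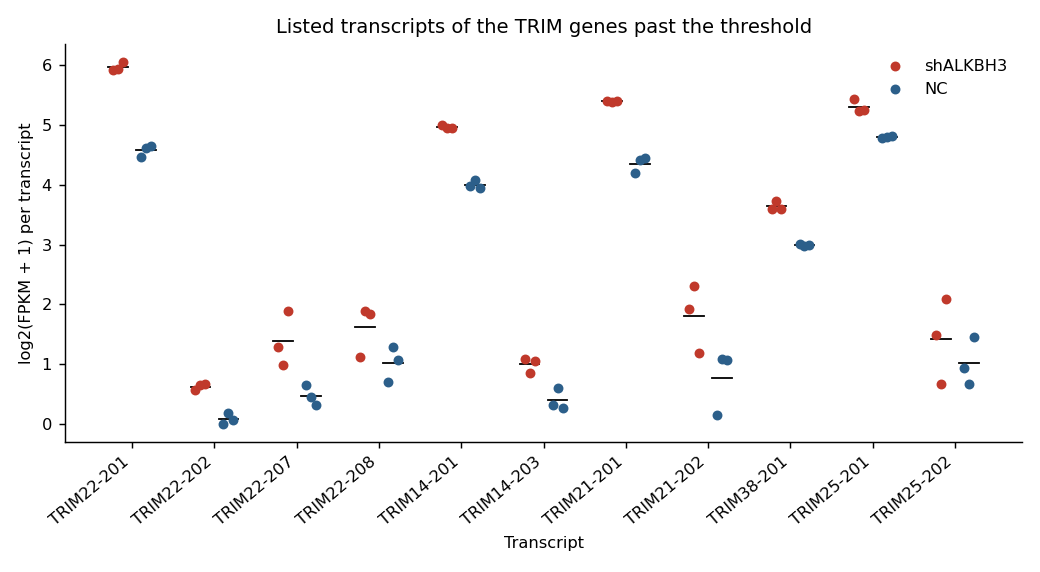
Level of each listed transcript of the 5 TRIM genes past the threshold, as log2(FPKM + 1), in 3 shALKBH3 and 3 NC libraries, with lines at group means. In TRIM22, TRIM14, TRIM21 and TRIM25 one transcript is far above the others, and TRIM38 has a single listed transcript.

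Outside the interferon-responsive list the most abundant members were TRIM28 and TRIM8, each at a mean of 49.4 FPKM over the 6 libraries, above TRIM22. TRIM28, also called KAP1, is the corepressor recruited by KRAB zinc finger proteins to silence retroelements. It was at 46.9, 37.9 and 43.2 FPKM in shALKBH3 libraries, against 50.7, 54.6 and 63.3 FPKM in NC libraries. The groups did not overlap, but the log2 difference of -0.39 did not pass (SE 0.119, limma adjusted p = 0.20). TRIM8, a ligase of cytokine signalling, was at 47.8, 44.4 and 45.7 FPKM in shALKBH3 libraries, against 51.9, 49.0 and 57.6 FPKM in NC libraries (log2 -0.19, limma adjusted p = 0.32). TRIM44 (log2 0.14), the RING-and-membrane type TRIM59 (0.02), the centrosomal and peroxisomal ligase TRIM37 (-0.06) and TRIM33 (0.30), a regulator of SMAD signalling, followed with means of 15.6, 14.8, 11.4 and 11.2 FPKM, and none passed. The signs of TRIM59 and TRIM37 turned under other scalings.

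TRIM27, a ligase gene on chromosome 6, had the smallest p among the remaining genes with a positive difference. It was at 4.78, 4.56 and 4.98 FPKM in shALKBH3 libraries, against 3.83, 3.39 and 3.24 FPKM in NC libraries (log2 0.36, limma adjusted p = 0.17). TRIM39, another ligase gene on that chromosome, was at 3.97, 4.75 and 4.30 FPKM in shALKBH3 libraries, against 0.516, 2.92 and 1.63 FPKM in NC libraries. The log2 difference was 1.09 (SE 0.337, limma adjusted p = 0.20), with NC values that spread over a wide range. The read-through gene TRIM39-RPP21, which shares exons with TRIM39, went the other way at 1.09, 1.19 and 0 FPKM in shALKBH3 and 3.70, 1.35 and 0.957 FPKM in NC libraries. With both added together the log2 difference of TRIM39 was 0.39 (adjusted p = 0.36). Its most abundant transcript, TRIM39-205, had a log2 difference of 1.24. The limma adjusted p was 0.042 with the most abundant transcript of each gene, and 0.14 in the fit of all transcripts. TRIM39-205 averaged 2.19 FPKM in shALKBH3 and 0.343 FPKM in NC libraries. It is listed only through the group where it is high, so its pass is not taken as a result. The value of TRIM39 is uncertain.

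TRIM6, a neighbour of TRIM5, TRIM22 and TRIM34 on chromosome 11 that makes unanchored ubiquitin chains, was at 5.90, 2.52 and 5.10 FPKM in shALKBH3 libraries, against 3.79, 1.80 and 0.5 FPKM in NC libraries. The groups overlapped, and the log2 difference of 0.96 (SE 0.467, limma adjusted p = 0.35) was 0.16 for its most abundant transcript. TRIM2 and TRIM58 had log2 differences of 0.25 and 0.23 (limma adjusted p = 0.28 and 0.29), without overlap between the groups. TRIM2 has NHL repeats and is known from neurons, and TRIM58 from red cell development.

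Among genes with a negative difference after TRIM28, TRIM65, known to modify the RNA sensor MDA5, was at 8.66, 6.75 and 7.08 FPKM in shALKBH3 libraries, against 10.3, 8.52 and 11.2 FPKM in NC libraries, and the groups overlapped (log2 -0.37, limma adjusted p = 0.26). TRIM3, an NHL-repeat protein, was at 0.0161, 0.962 and 1.21 FPKM in shALKBH3 libraries, against 1.56, 1.72 and 1.66 FPKM in NC libraries. The log2 difference of -0.69 (SE 0.302, limma adjusted p = 0.31) was -0.35 without shALKBH3 replicate 1, which held the value near 0. TRIM4 had a log2 difference of -0.17 (limma adjusted p = 0.33) and TRIM68 one of -0.24 (adjusted p = 0.54).

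In some members the level stood in different transcripts from library to library. In TRIM32, an NHL-repeat ligase linked to muscle disease, TRIM32-203 took nearly all of the level in shALKBH3 replicate 2 (9.08 FPKM) and NC replicate 1 (9.71 FPKM), and TRIM32-201 in the other 4 libraries. The 2 transcripts are 3717 and 3688 nucleotides long, and the gene sum ran from 3.17 to 9.08 FPKM in shALKBH3 and from 4.99 to 9.71 FPKM in NC libraries (log2 -0.51, limma adjusted p = 0.54). TRIM16 shares sequence with its copy TRIM16L and is uncertain, with a log2 difference of 0.01 (limma adjusted p = 0.98). TRIM4-203 was listed at 0, 4.78 and 3.73 FPKM in shALKBH3 and at 0.00985, 0 and 0 FPKM in NC libraries, while TRIM4-201 was lower in every shALKBH3 library than in any NC library (log2 -0.89, limma adjusted p = 0.27).

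The 7 listed TRIM genes under the level needed for the test were TRIM36, TRIM46, TRIM47, TRIM52, TRIM62, TRIM66 and TRIM7, with means from 0.478 FPKM (TRIM7) to 0.983 FPKM (TRIM36). In each of them the groups overlapped. TRIM52 was listed at 0.989, 1.92 and 0 FPKM in shALKBH3 libraries and at 0 in every NC library, and no fold is given for it.

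By protein type, 4 of the 17 tested genes with a RING finger and a PRY-SPRY domain rose and 0 fell (TRIM21, TRIM22, TRIM25 and TRIM38), with a median log2 difference of 0.36. Over all genes tested 1.28% rose and 0.477% fell. Of 3 tested genes without a RING finger 1 rose, TRIM14. None of the 3 NHL-repeat genes, the 3 genes with PHD and bromodomains, the 2 RING and B-box genes with no further domain or the 5 single-member and membrane types passed in limma, and their medians were -0.51, 0.14, 0.17 and -0.06. At an unadjusted p under 0.05 these 4 types held 1 higher gene (TRIM2) and 1 lower gene (TRIM28) among their 13, near the 8.98% and 8.15% of all genes. By chromosome, 2 of 8 tested TRIM genes on chromosome 11 rose, TRIM21 and TRIM22, and 1 of 4 on chromosome 6, TRIM38, where 1.28% of all genes rose. All 4 genes on chromosome 6 had every shALKBH3 library above every NC library (12.9% of all genes did), with a median log2 difference of 0.52, and the classes and chromosomes share members with the interferon-responsive list.

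Family members that carry other symbols did not pass. PML (TRIM19), the scaffold of nuclear bodies, had a log2 difference of 0.17 (limma adjusted p = 0.69), the microtubule-associated ligase MID1 (TRIM18) 0.08 (adjusted p = 0.74) and MID2 0.39 (adjusted p = 0.18), while MEFV (TRIM20) had no listed transcript. Of 20 tested genes of RNA and DNA sensing and antiviral signalling, in which TRIM proteins act, 4 rose (1.28% of all genes tested did) and 0 fell (0.477% did), with a median of 0.33, against -0.01 over all genes. IFIH1, which encodes the RNA sensor MDA5, was at 65.4, 83.2 and 76.1 FPKM in shALKBH3 libraries, against 26.4, 28.7 and 22.7 FPKM in NC libraries (log2 1.49, limma adjusted p = 0.0051). DDX58, the gene of RIG-I and the known partner of TRIM25, rose by 1.73 and the antiviral zinc finger gene ZC3HAV1 by 0.51 on the log2 scale (limma adjusted p = 0.0030 and 0.047). The adjusted p of ZC3HAV1 lay close to the threshold. Over the partner genes of all lists, 5 instead of 6 passed without any 1 library. The same number passed with 0.1 FPKM added, after a median shift or with no variance trend.

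MAVS, the partner of TRIM14, had a log2 difference of -0.05 (limma adjusted p = 0.80) and the kinase gene TBK1 0.18 (adjusted p = 0.55). IRF3, a factor downstream of both, was at 9.81, 8.33 and 8.92 FPKM in shALKBH3 libraries, against 10.6, 14.0 and 15.7 FPKM in NC libraries, and did not pass (log2 -0.51, limma adjusted p = 0.19). These genes do not stand for the list. At an unadjusted limma p under 0.05, 8 of its 20 genes had a positive difference, the 4 that passed among them. IRF3 was the 1 gene with a negative one. Across all genes these shares were 8.98% and 8.15%. Of 20 tested ubiquitin enzymes 2 rose and 0 fell, against 1.28% and 0.477% of all genes, with a median of 0.11. Both act on the ubiquitin-like modifier ISG15: its conjugating enzyme gene UBE2L6 was at 151, 142 and 145 FPKM in shALKBH3 libraries, against 72.1, 74.9 and 75.4 FPKM in NC libraries (log2 0.97, limma adjusted p = 0.0030), and its protease gene USP18 rose by 1.99. The ubiquitin-conjugating enzyme genes UBE2D2, UBE2D3 and UBE2N, which serve TRIM ligases, had log2 differences of -0.21, 0.08 and -0.11 (limma adjusted p = 0.30, 0.76 and 0.63). UBA7, in the same list, did not pass either (log2 0.78, limma adjusted p = 0.088), but all its shALKBH3 values lay above all NC values. Of the 20 enzymes 5 had a positive and 1 a negative difference at an unadjusted limma p under 0.05 (8.98% and 8.15% of all genes).

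**Figure D5:**
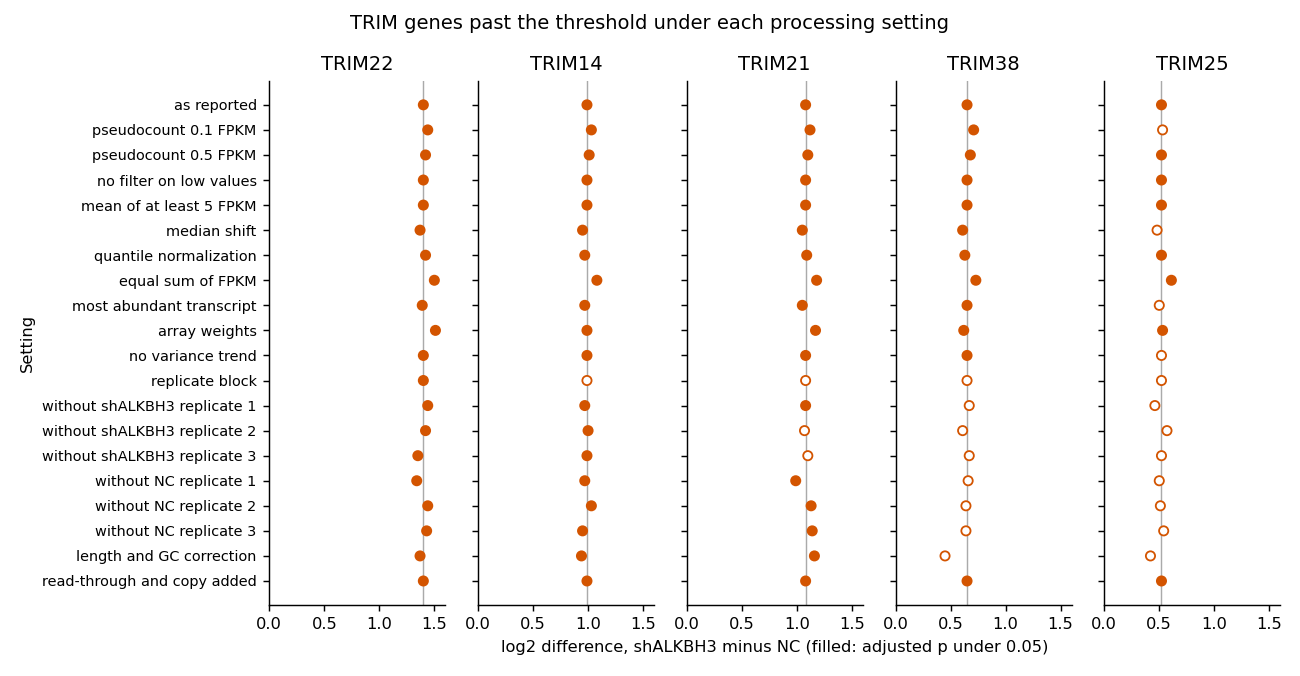
Log2 difference (shALKBH3 minus NC) of the 5 TRIM genes past the threshold under the reported setting and 19 alternatives, with filled points at an adjusted p under 0.05 and a grey line at the reported value. All points lie above 0. TRIM22 is filled throughout, and TRIM38 and TRIM25 are open whenever 1 library is left out.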

How the data were processed

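RNA from 3 shALKBH3 and 3 NC libraries was compared. The authors deposited FPKM for each of 28900 transcripts per library, per the file headers, already scaled by the authors to transcript length and mapped fragments. The submitters' processing notes name hg19, HTSeq 0.6.0 and DESeq2 without their roles. The aligner, the annotation or the tool behind the FPKM is not given in the sources used here. No transcript is listed whose group means are both under 0.5 FPKM. Values reach down to 1e-06 FPKM, and whole reads could not be recovered, so depth is unknown and no counting interval is given.

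Identifiers without suffix and version were matched to GENCODE release 29 (28796 of 28900, 99.6%), used for names, chromosomes, lengths and GC content. FPKM were summed per gene. Genes averaging 1 FPKM or more over the 6 libraries were compared as log2(FPKM + 1), so fold changes of low genes are understated, with limma 3.58.1 in R 4.3.3 (variance trend, two-sided, Benjamini-Hochberg over 10475 genes, threshold 0.05). Transcripts were tested likewise. The fit was tested on simulated data. Tables and plots used Python 3.11.15, pandas 2.3.3, numpy 2.4.6 and matplotlib 3.10.9.

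The members, the interferon-responsive list and the partner lists were chosen with earlier results of these data known, so lists are described by counts and medians without a test. Genes named were ALKBH3, all TRIM genes past the threshold, all interferon-responsive members, the 6 other TRIM genes with the smallest p in each direction and the 6 most abundant, those under the filter, partner genes past the threshold and the TRIM relatives PML, MID1, MID2 and MEFV. Other genes named (TRIM16 and its copy, TRIM32, the read-through genes, the cell type markers, MAVS, TBK1, IRF3, UBE2D2, UBE2D3, UBE2N and UBA7) were chosen after their values were seen. One partner gene past the threshold is not reported here. Alternatives covered the pseudocount, the filter, scaling, weights, the variance trend, the most abundant transcript, a replicate block and leaving out each library. The length and GC correction and the sums with read-through genes were added after the data had been seen.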

Additional observations from a re-analysis of the deposited data

How the results depend on the processing

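TRIM22 stayed past the threshold in all 19 alternatives and TRIM14, TRIM21, TRIM38 and TRIM25 in 18, 16, 11 and 7, with positive log2 differences throughout. Leaving out 1 library gave 2 to 3 TRIM genes instead of 5, 1 to 2 transcripts instead of 3 and 48 to 109 genes instead of 184. The median log2 difference then ran from 0.57 to 0.69 for interferon-responsive TRIM genes and from -0.06 to 0.00 for the other TRIM genes. The labels do not say whether the replicate numbers pair the samples. Deviations of same-numbered libraries correlated at -0.088, 0.075 and -0.012, and those of differently numbered libraries at -0.141 to 0.142. With 3 libraries per group these values cannot settle whether the samples are paired. Under the replicate block, which leaves fewer degrees of freedom, 1 TRIM gene, 3 partner genes instead of 6, 0 TRIM transcripts and 20 genes passed, and the adjusted p of ALKBH3 was 0.098. With the length and GC correction 3 TRIM genes passed and the 2 medians were 0.45 and -0.08. The interferon-responsive median was 0.71 and 0.68 with pseudocounts of 0.1 and 0.5 FPKM, 0.61 after a median shift, 0.73 with equal sums (0.08 for the other TRIM genes) and 0.62 with array weights. The median of the others was -0.06 at a minimum of 5 FPKM. Array weights gave 480 genes. The most abundant transcript gave 105 genes and 3 partner genes, and again 5 TRIM genes, with TRIM39 in and TRIM25 out. The TRIM39 transcript, listed only through shALKBH3, did not pass in the fit of all transcripts (limma adjusted p = 0.14). TRIM25 also missed the threshold with a pseudocount of 0.1 FPKM (adjusted p = 0.050), a median shift (0.060) or no variance trend (0.073). Differences that were not called turned sign in TRIM59 (-0.02 after a median shift and without shALKBH3 replicate 2, -0.05 for the most abundant transcript, -0.08 with the length and GC correction, and up to 0.06 without another library), TRIM37 (0.03 with equal sums, 0.01 without shALKBH3 replicate 2, and down to -0.12 without another library), TRIM34 (-0.10 for the most abundant transcript) and TRIM44 (-0.08 with the length and GC correction). The cause of these shifts was not tested. A wider interferon-responsive list, which holds the same 9 tested genes among its 11, had a median of 0.65. Of the 11, 10 had a positive and 1 a negative difference (-0.01). Its 5 members past the threshold are the same genes, so this list is no separate check. Sequencing depth is unknown, so the counting error behind low FPKM cannot be given.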
